A study of Callithrix jacchus with 71 samples.

Results

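The SOX genes encode transcription factors that bind DNA through a shared HMG box, and 10 of them were followed here across single marmoset cells. They are SOX1, SOX2 and SOX3 of group B1, SOX4 and SOX11 of group C, SOX5 and SOX6 of group D, SOX9 and SOX10 of group E, and SOX17 of group F. The members were listed by name, with earlier results of these data known. All 10 have a row among the 23561 named genes of the table, in which 18 SOX genes are present. The other 8 are set beside them only where they help to place a group.

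The cells were sorted singly into plates, and total RNA was read by random displacement amplification sequencing (RamDA-seq), which covers transcripts along their length. The 65 induced neural stem cell-like cells (iNSLCs) came from clone A-2 at passage 1. This clone was made from E01F fibroblasts of embryonic marmoset dorsal skin with the EP-A episomal vectors and was grown in the medium called NSM. In these vectors human SOX2 shares a plasmid with KLF4, OCT4 sits on another, LIN28 is paired with L-MYC, and the mouse p53 mutant mp53DD and EGFP are added. Vectors were still found in later passages of these clones. Beside them stand 1 E01F fibroblast, 4 cells of the embryonic stem cell (ESC) line no. 40 and 1 cell of the transgene-free iPSC clone E01F A-2-2, which derives from the same iNSLC clone. PSC cells is used below for these 5 stem cells. Each group is 1 culture, and the iPSC and the fibroblast are 1 cell each, so no test between groups was made. Intervals below cover counting error only, and all fold changes describe these cells.

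In the embryo, SOX genes mark and maintain cell fates in turn. Group B1 factors keep neural progenitors dividing, and SOX2 also works with OCT4 in pluripotent cells. Group C factors act as progenitors become neurons, group D factors lack an activation domain of their own and work alongside SOX9 in cartilage, group E factors act in glia, neural crest and cartilage, and SOX17 acts in endoderm, endothelium and germ cells.

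Most markers followed the labels. PAX6, MSI1 and NES had reads in 96.9% to 100% of the iNSLCs. MSI1 and NES were not confined to them, at 0 to 40.6 and 75.9 to 207 normalized counts in the PSC cells. NANOG, TDGF1, CDH1 and ZFP42 had reads in at most 4.62% of the iNSLCs. Their medians were 41.7 to 148 normalized counts in the PSC cells, where CDH1 ranged down to 0. The fibroblast held 9769 normalized counts of COL1A1 and 224 of PDGFRB, but only 17.4 of DCN and 2.43 of LUM. COL1A1 and PDGFRB were also at 20.3 to 380 and 10.2 to 42.7 in the PSC cells. COL1A2 was also read in 69.2% of the iNSLCs at a median of 19.9. Depth ran from 82268 to 695241 reads on genes per iNSLC, from 134328 to 1003718 per ESC, and came to 302617 in the iPSC and 1294430 in the fibroblast. A single read was worth 0.405 to 2.84 normalized counts, depending on the cell. ESC cell 11, the shallowest PSC cell, stood apart with 7126 detected genes against a PSC median of 15122, and without it the log2 ratios of SOX2 and SOX11 given below became −1.71 and −2.40.

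More of the 10 members were higher in the iNSLCs than in the PSC cells. Calls were made on the log2 ratio of group means after a pseudocount of 1 was added, while folds printed below are of the means themselves. By this call 6 members were at least 2-fold higher in the iNSLCs (SOX1, SOX2, SOX11, SOX5, SOX6 and SOX9), against 10.6% of 23396 genes with a read. None was called higher in the PSC cells, against 21.1% of genes, with SOX10 closest. On this scale the median ratio, PSC cells over iNSLCs, was −2.04 over the members and 0.11 over all genes. For no member did every iNSLC lie above every PSC cell, which held for 0.145% of genes, and for none did every PSC cell lie above every iNSLC, which held for 0.808%. Of the 8 other SOX genes, 2 were higher in the iNSLCs, 1 in the PSC cells and 5 were within 2-fold. Over all 18 SOX genes, the iNSLCs had reads of 6 to 15 per cell (median 12), the PSC cells of 5 to 12 (median 11) and the fibroblast of 6.

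**Figure D1:**
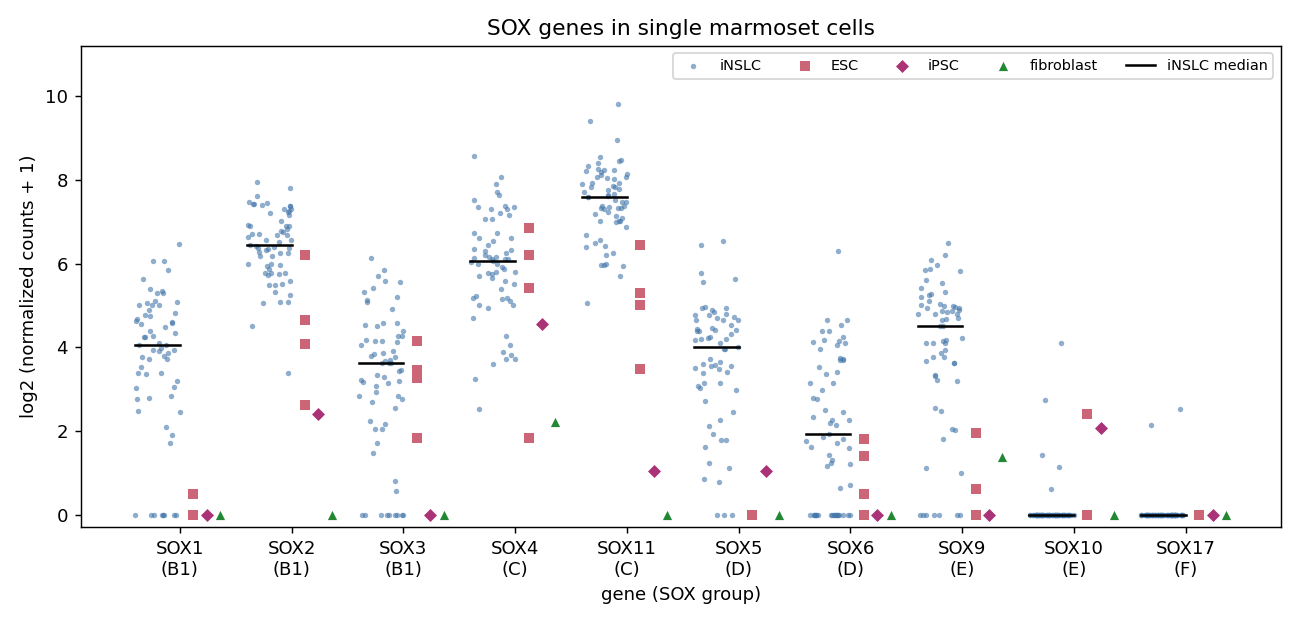
Level of each SOX member in every cell, as log2 (normalized counts + 1), with iNSLCs as small points, ESCs as squares, the iPSC as a diamond and the fibroblast as a triangle. Black bars are iNSLC medians. SOX2, SOX4 and SOX11 are above 0 in all 65 iNSLCs, and SOX10 and SOX17 are at 0 in nearly all.

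Among the B1 genes, SOX2 was present in every iNSLC and every PSC cell but not in the fibroblast. It was at 9.45, 86.1 and 245.8 normalized counts in the lowest, median and highest iNSLC. The ESCs held 24.3, 5.11, 72.3 and 15.8 normalized counts in cells 10, 11, 12 and 14, and the iPSC held 4.27. The groups overlapped, as 42 of the 65 iNSLCs were above the highest PSC cell and 3 PSC cells lay within the iNSLC range. The iNSLC mean was 4.02-fold that of the PSC cells, a log2 ratio of −1.97 that moved to −2.89 without ESC cell 12, the PSC cell with the most SOX2. The fibroblast had no SOX2 read, and the iNSLC mean was at least 80.8-fold the level that 3 reads would have given in it.

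SOX1, a marker of neuroectoderm and neural progenitors, was nearly absent outside the iNSLCs. Its only read in the PSC cells was in ESC cell 10, at 0.405 normalized counts, and the fibroblast had none. Over the iNSLCs its lowest, median and highest values were 0, 15.5 and 87.2 normalized counts, with a read in 57 of 65 cells, or 87.7% (95% interval 77.2 to 94.5). All 57 cells with a read lay above the highest PSC cell, while the other 8 iNSLCs overlapped with the PSC cells at 0. The ratio of the means was 243, with a counting interval of 43.6 to 9585 that reflects the single PSC read. SOX1, SOX2 and SOX5 overlap other genes with a row by a RefSeq table of another assembly, and reads of the overlap cannot be told apart where strand was not used.

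SOX3, the B1 gene of the X chromosome and a partner of SOX1 and SOX2 in the early neural plate, was shared with the ESCs. The ESCs held 16.6, 2.55, 8.64 and 10.0 normalized counts in cells 10, 11, 12 and 14, and neither the iPSC nor the fibroblast had a read. The iNSLCs ran from 0 through a median of 11.3 to 69.1, with a read in 56 of 65 cells. All PSC values fell inside the iNSLC range, and the difference in means was 1.96-fold. With each cell scaled to the same total it passed 2-fold, at a log2 ratio of −1.19, but that scaling also moved the median of 6294 genes by −0.29. The log2 ratios of the B1 genes were thus −4.26 for SOX1, −1.97 for SOX2 and −0.89 for SOX3, and the differences between them were not tested.

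SOX21, the B2 gene that counteracts B1 factors at their targets, was read only in the iNSLCs. It was at 0 in the fibroblast and all 5 PSC cells, with a median of 30.0 normalized counts in the iNSLCs and a highest value of 167. Reads were present in 63 of 65 iNSLCs, whose mean was at least 57.5-fold the level of 3 reads over the PSC cells.

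Both group C members were read in all 65 iNSLCs (100%, 95% interval 94.5 to 100), as was SOX2, whereas 7.34% of genes detected in iNSLCs had a read in every one. SOX11, which promotes neuronal maturation, was at 32.5, 191 and 896 normalized counts in the lowest, median and highest iNSLC. The ESCs held 31.2, 10.2, 85.8 and 38.3, the iPSC 1.07, from 1 read, and the fibroblast none. Only ESC cells 12 and 14 reached the iNSLC range, and 55 iNSLCs were above every PSC cell. The mean was 6.33-fold higher in iNSLCs, with the log2 ratio going from −2.63 to −3.32 when ESC cell 12 was left out.

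SOX4, the other group C gene of neural precursors and one expressed in many dividing tissues, differed less. It was at 72.9, 2.55, 114 and 41.7 normalized counts in ESC cells 10, 11, 12 and 14, at 22.4 in the iPSC and at 3.64 in the fibroblast. The iNSLCs ran from 4.72 through 65.5 to 376 and so covered 4 of the 5 PSC cells, and all 65 lay above the fibroblast. The ratio of iNSLC to PSC means was 1.64-fold, and it passed 2-fold when ESC cell 12 was left out (log2 ratio −1.24) and when cells were scaled to the same total (−1.04). SOX12, the remaining group C gene, had reads in 61 iNSLCs at a median of 19.3 normalized counts, against 0 to 4.32 in the PSC cells and 10.5 in the fibroblast.

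**Figure D2:**
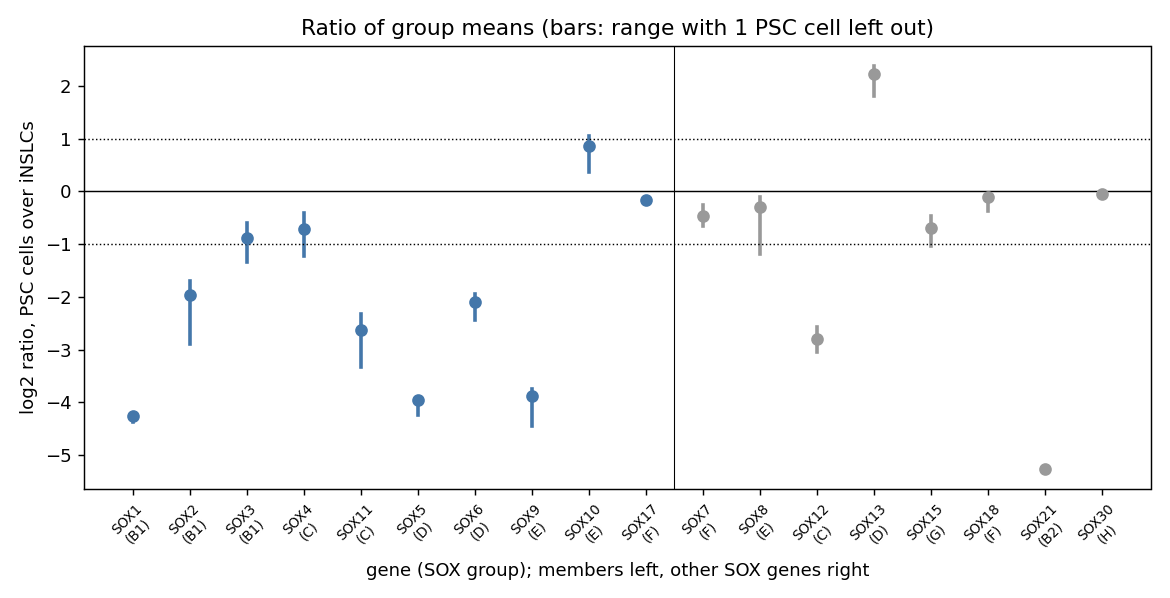
Log2 ratio of the PSC mean to the iNSLC mean for each SOX gene, with members on the left and the other 8 SOX genes on the right. Bars give the range when 1 PSC cell is left out, and dotted lines mark 2-fold. SOX1 and SOX5 lie near −4, SOX10 is at 0.85, short of 2-fold, and SOX13 is at 2.23.

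The group D genes went in different directions. SOX5, which is expressed in cortical and other neural lineages as well as in cartilage, had 1 read in the iPSC, equal to 1.07 normalized counts, and none in any ESC or in the fibroblast. In the iNSLCs its lowest, median and highest values were 0, 15.0 and 91.6 normalized counts, with reads in 62 of 65 cells (95.4%, 95% interval 87.1 to 99.0). Apart from 3 iNSLCs at 0 and 2 others below the iPSC, the iNSLCs were above every PSC cell. The ratio of means was 83.5 (counting interval 15.0 to 3299).

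SOX6, which acts redundantly with SOX5 in cartilage, was detected less often and more unevenly. It was at 0.405, 0, 1.62 and 2.50 normalized counts in ESC cells 10, 11, 12 and 14 and at 0 in the iPSC and the fibroblast. Reads were found in 46 of 65 iNSLCs (70.8%, 95% interval 58.2 to 81.4), from a median of 2.82 to a highest value of 77.5 in cell 49. The next highest iNSLC held 24.3, and 34 iNSLCs were above every PSC cell. The mean was 7.96-fold higher in iNSLCs. This call was lost with a pseudocount of 10, where the log2 ratio was −0.66 instead of −2.11.

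SOX13, the third gene of group D, was higher in the PSC cells. They held 527.9, 260.4, 151.7, 183.3 and 172.1 normalized counts in ESC cells 10, 11, 12 and 14 and in the iPSC, whereas the iNSLCs had a median of 48.2 and a highest value of 211. The PSC mean was 4.77-fold higher, 3 PSC cells lay within the iNSLC range, and the fibroblast had no read.

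SOX9, the group E factor of neural stem cells, glia and cartilage, was read mainly in the iNSLCs. It was at 2.83 and 0.540 normalized counts in ESC cells 10 and 12, at 0 in the other ESCs and in the iPSC, and at 1.62 in the fibroblast. The iNSLCs ran from 0 through a median of 21.8 to 88.7, and 58 of 65 had a read (89.2%, 95% interval 79.1 to 95.6). Of these, 55 were above the highest PSC cell. The means differed 35.1-fold from the PSC cells and 14.6-fold from the fibroblast.

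SOX10, the group E factor of neural crest and oligodendrocytes, was rare everywhere. ESC cell 12 held 4.32 normalized counts from 8 reads, the iPSC held 3.21 from 3 reads, and the other 3 ESCs and the fibroblast had none. Of the 65 iNSLCs, 5 had a read (7.69%, 95% interval 2.54 to 17.0), and cell 33 alone supplied 14 of their 24 reads, at 16.2 normalized counts. Cell 84 had 5 reads, cell 56 had 3, and cells 34 and 93 had 1 each. The PSC mean of 1.51 normalized counts was 3.87-fold that of the iNSLCs, 0.389, from 11 and 24 reads, but with the pseudocount the log2 ratio was 0.85, short of the call. Leaving out ESC cell 10, 11 or 14 brought it to 1.05 and thus past 2-fold, and leaving out ESC cell 12 brought it to 0.38. All 5 SOX10-positive iNSLCs also had SOX9, at 8.34 to 30.5 normalized counts.

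SOX17, the group F factor of endoderm, endothelium and germ cells, was not read in the fibroblast or the 5 PSC cells. It was found in iNSLC cells 84 and 91, with 3 and 2 reads and 3.41 and 4.73 normalized counts. These 2 cells make 3.08% of the iNSLCs (95% interval 0.375 to 10.7). Over so few PSC cells the limit is weak, as 0 of 5 allows a share of up to 60% by the limit of 3 counts (the exact bound is 52.2%). SOX7, also of group F, had reads in 36.9% of iNSLCs and in 4 of the 5 PSC cells, where it did not exceed 3.24 normalized counts.

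Against the single fibroblast, 8 of the 10 members were at least 2-fold higher in the iNSLC mean, compared with 17.5% of genes. SOX10 and SOX17 were the remaining 2. The fibroblast was the deepest cell of the series, and its reads of the 10 members were limited to 9 of SOX4 and 4 of SOX9. Every iNSLC exceeded the fibroblast for SOX2, SOX4 and SOX11, which held for 0.571% of genes. With the ESCs alone in place of all PSC cells, 6 members were again higher in iNSLCs, against 12.3% of genes. Against the iPSC alone 8 were higher, against 16.8% of genes, and SOX10 was lower, against 18.3%.

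Several members were read together in single iNSLCs. The number of members with a read was 8 in 32 cells, 7 in 17, 6 in 8, 9 in 5, 4 in 2 and 5 in 1, with a median of 8. In all, 8 of the 10 members had a read in at least 70% of the iNSLCs, against 37.1% of genes detected there. All 3 B1 genes were present in 51 cells (78.5%, 95% interval 66.5 to 87.7), against 49.1 cells given by the product of the single shares. SOX1 was found without SOX3 in 6 cells, SOX3 without SOX1 in 5, and neither in 3, namely cells 31, 78 and 83. Cell 31 was also the iNSLC with the least SOX2 and the least SOX4, from 4 and 2 reads. It had 109907 reads in all and was among the iNSLCs too shallow to be thinned.

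SOX5 and SOX6 were both read in 44 cells (67.7%), against a product of 43.9, so their co-detection was at the level that their separate shares give. All 8 members other than SOX10 and SOX17 were present in 35 cells (53.8%, 95% interval 41.0 to 66.3), against a product of 29.6. When every cell was thinned to 129629 reads, which 58 iNSLCs reached, the figure was 29 of 58 cells (50%) against 24.8. In cells numbered 56 or below it was 14 of 27 against 9.26. In those numbered 57 or above it was 21 of 38 against 20.8, so the excess over the product was not seen there. SOX10 and SOX17 coincided in 1 cell, cell 84, which carried 9 members.

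Detection moved with the complexity of the cell by medians, with exceptions. Cell 33 had the fewest detected genes of the iNSLCs, 7574, but carried 9 members, and cell 83 had 12739 and carried 6. The 37 iNSLCs with at least 8 members had a median of 11333 detected genes, against 9342 in the 11 cells with at most 6. The 8 cells without SOX1 had a median of 8912.5 detected genes, against 11104 in the cells with it, and the 7 cells without SOX9 had 9726 against 11105.5. The part of capture in the missing reads was not tested. In the thinned cells the shares were 91.4% for SOX1, 84.5% for SOX3, 94.8% for SOX5, 63.8% for SOX6 and 91.4% for SOX9. The PSC cells carried 4 to 7 members each and the fibroblast 2, at depths reaching above those of the iNSLCs. After thinning, the PSC cells had 3 to 6, the iNSLCs 5 to 9 and the fibroblast 1. Thinning left out 7 iNSLCs and no PSC cell. The iNSLCs left out include every one that had 4 or 5 members before it. The shares and the range of thinned iNSLCs thus cover only the 58 that remained.

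**Figure D3:**
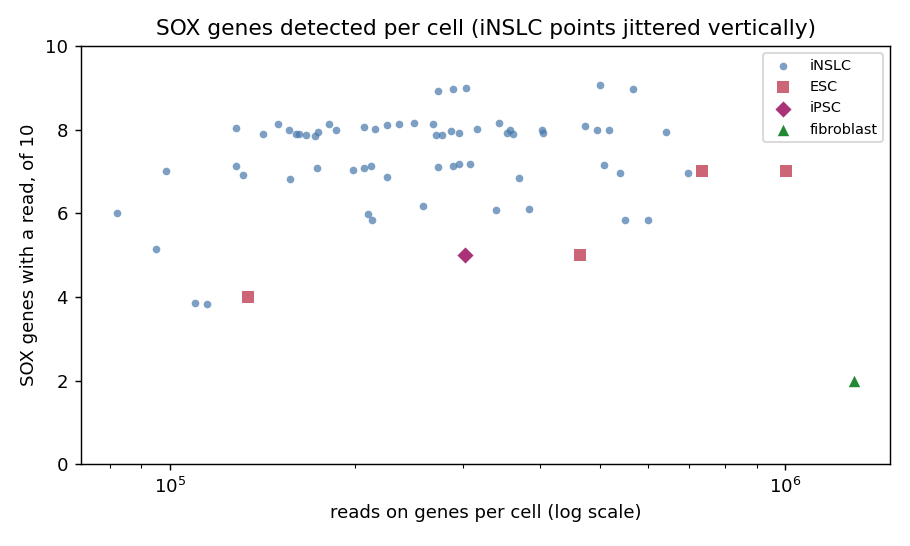
Number of the 10 SOX members with a read in each cell against the reads on genes of that cell on a log axis. The iNSLCs carry 4 to 9 members, the PSC cells 4 to 7 and the fibroblast 2, although the fibroblast is the deepest cell.

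**Figure D4:**
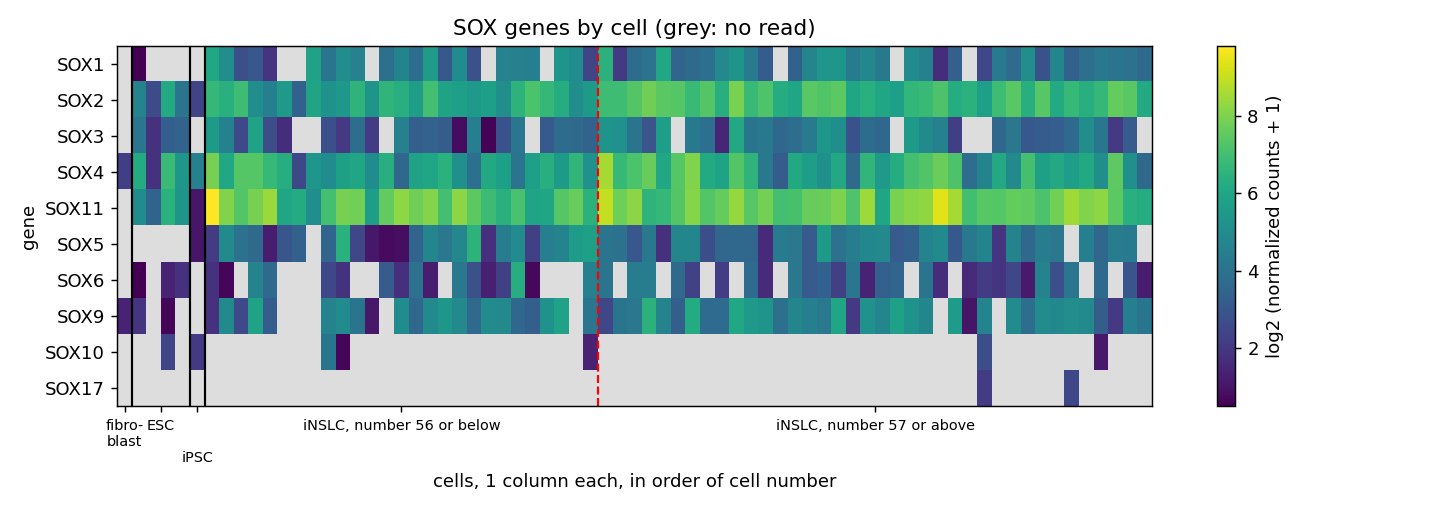
Each SOX member (rows) in each cell (columns, by cell number), as log2 (normalized counts + 1) with grey for no read. The rows of SOX2, SOX4 and SOX11 are unbroken over the iNSLCs, the gaps of SOX1, SOX3, SOX6 and SOX9 partly fall in the same cells, and the dashed line separates cells numbered 56 or below from those numbered 57 or above.

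The amounts of the members were only loosely related over the 65 iNSLCs. Among 28 pairs of the 8 widely detected members, Pearson correlations of log2 values ran from −0.01 to 0.48 with a median of 0.20, and the median was 0.12 in thinned cells. The highest were SOX3 with SOX11 at 0.48, SOX4 with SOX11 at 0.43 and SOX1 with SOX3 at 0.40. SOX21, which is outside the list, had higher values with SOX2 (0.52, and 0.46 in thinned cells) and with SOX9 (0.51, and 0.53 in thinned cells). Within the cells numbered up to 56 and from 57, they were 0.37 and 0.40 with SOX2 and 0.53 and 0.41 with SOX9. The highest member pair reached 0.57 and 0.51 there, so this order did not hold within either set. In thinned cells the highest member pair reached 0.42, below both values of SOX21. All of these points come from 1 culture and share depth and capture, so they describe the cells and nothing more.

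The genes whose levels were most alike those of each member were sought among 5793 genes over the same 65 cells. They were CD320, SLC25A1 and PGD for SOX1, RNF130, BCR and KIF1A for SOX3, and SLC35F1, LRIG3 and PRDM8 for SOX4. The first of each stood at correlations of 0.56, 0.59 and 0.52. Those for SOX9 included USP31 at 0.52 and SOX21 at 0.51. For SOX2 they were PPDPF, PACS1 and PTMS, for SOX11 SBK1, RARA and AKAP1, and for SOX5 SASH1, ZADH2 and PIP4K2A, none of which remained among the top 3 in thinned cells. CPNE2, HPCAL1 and SYVN1 were the most alike SOX6, at 0.44 to 0.45. Of the top 3, 2 were shared with the thinned cells for SOX3, and 1 for SOX1, SOX4 and SOX6.

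SOX2 reads may come from the marmoset gene or from the vector that carries human SOX2 with KLF4, and the table does not separate them. KLF4 had reads in 16 iNSLCs (24.6%, 95% interval 14.8 to 36.9) and at most 25.5 normalized counts, while it was at 5.34 to 129 in the PSC cells. The SOX2 median was 89.2 normalized counts over the 16 iNSLCs with KLF4 reads and 86.1 over the 49 without, and the correlation of the pair was −0.01. In these 49 cells SOX2 was read and KLF4, on the same plasmid, was not read at the depth of the cell. The source of the SOX2 reads was not tested here. By qPCR, the paper reports SOX2 expression from the marmoset gene in iNSLC clones at later passages. It reports the same for early-passage iNSLCs of an adult animal. How many human vector transcripts were assigned to marmoset genes was not tested.

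The other vector factors gave similar figures for POU5F1 (OCT4). The SOX2 median was 92.5 normalized counts in the 24 iNSLCs with POU5F1 reads and 82.4 in the 41 without. SOX2 had correlations of −0.07 with POU5F1 and −0.07 with LIN28A, which was read in every iNSLC at a median of 55.6. With MYCL it was 0.34, and the SOX2 median was 105.7 in the 38 cells with MYCL reads and 60.7 in the 27 without. Of those 27 cells, 17 were numbered 56 or below, and within the cells numbered up to 56 and from 57 the correlation with MYCL was 0.29 and 0.11.

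**Figure D5:**
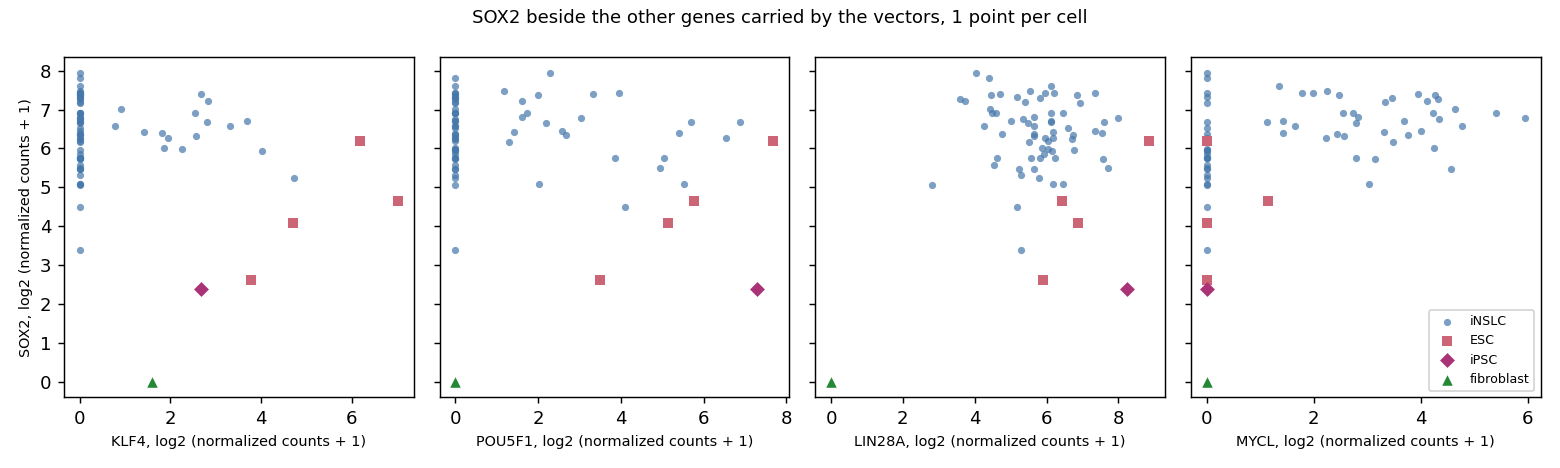
SOX2 against KLF4, POU5F1, LIN28A and MYCL in every cell, each axis as log2 (normalized counts + 1). The column of iNSLCs at 0 for KLF4 spans the whole range of SOX2, from 9.45 to 245.8 normalized counts, and the iPSC has little SOX2 beside high POU5F1.

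Cells numbered 56 or below (27) and 57 or above (38) differed in profile, with medians of 357910 and 208746 reads and of 10061 and 11333.5 detected genes. What this division is cannot be told from the labels. On means with the pseudocount no member differed by 2-fold between the sets, where 4.73% of genes were higher and 4.59% lower in the cells from 57 on. SOX2 came closest, with medians of 53.4 and 110.2 normalized counts and a log2 ratio of means of 0.87, although its medians alone differed by more than 2-fold, as did those of SOX6 at 1.45 and 3.91, and the raw means of SOX10 were 0.682 and 0.181. The SOX1 means were alike at 19.6 and 19.7. Outside the list, SOX12, SOX15 and SOX21 passed 2-fold with log2 ratios of 1.06, 1.81 and 1.14. Detection was 81.5% and 92.1% for SOX1, 63.0% and 76.3% for SOX6, and 81.5% and 94.7% for SOX9 in the earlier and later cells. SOX15, the sole gene of group G, had reads in 56.9% of all iNSLCs and lay between 0 and 4.86 normalized counts in the PSC cells.

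Genes that work with or under each SOX group were counted from lists, and every count is to be read against the 10.6% of all genes higher in iNSLCs and the 21.1% higher in PSC cells. Of 8 neural progenitor genes set beside group B1, 6 were at least 2-fold higher in iNSLCs and none in PSC cells. POU3F2, PAX6 and HES5 had no read in the PSC cells, and their iNSLC means were at least 153-fold, 35.2-fold and 39.1-fold the level of 3 reads over those cells. NES, the intermediate filament of neural stem cells, was read in all cells, at an iNSLC median of 228 normalized counts. All 7 measured genes of OCT4-SOX2 pluripotency were higher in the PSC cells, and UTF1 and FGF4, 2 direct targets of that pair, had no read in any iNSLC (0 of 65, which by the limit of 3 counts allows a share of up to 4.62%). SALL4, by contrast, was read in every iNSLC, at a median of 47.1 normalized counts against 61.3 to 193 in the PSC cells.

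Of 6 measured early neuron genes set beside group C, 4 were higher in iNSLCs and 1, ELAVL3, in PSC cells. Over all genes these shares were 10.6% and 21.1%. DCX, a microtubule protein of migrating neurons, was read in 52 iNSLCs, NEUROG2, a proneural factor, in 22 and STMN2 in 28. The remaining gene called higher in iNSLCs was read in only 4 of them, at up to 61.5 normalized counts. SOX11 had medians of 192 and 183 normalized counts in cells with and without NEUROG2 reads, and SOX4 had 70.2 and 64.7. In cells with and without DCX reads, SOX11 had medians of 197 and 150 and SOX4 of 68.0 and 41.2, so that the ranges overlapped in both splits. The cells with DCX reads also had more detected genes, with medians of 11130.5 and 10221.

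Of 8 cartilage genes that SOX5, SOX6 and SOX9 regulate in chondrocytes, 1 was higher in iNSLCs and 3 in PSC cells, beside 10.6% and 21.1% of all genes. COL2A1, the collagen of cartilage, was the one, with reads in 51 iNSLCs (78.5%), a highest value of 536 normalized counts and at most 4.45 in the PSC cells. ACAN, the cartilage proteoglycan, had no read in any iNSLC. SOX9 medians were 21.8 and 20.9 normalized counts in cells with and without COL2A1 reads, and the correlation of SOX9 with COL2A1 was −0.05.

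Of 7 glial genes set beside SOX9, 1 was higher in iNSLCs and 2 in PSC cells, again near those shares. SLC1A3, the glutamate transporter of radial glia and astrocytes, was read in 61 iNSLCs, whereas GFAP was read in 1 and ALDH1L1 in none. Of 8 measured neural crest and oligodendrocyte genes set beside SOX10, 3 were higher in iNSLCs and 4 in PSC cells. Over all genes these shares were 10.6% and 21.1%. PDGFRA, the receptor of oligodendrocyte precursors and fibroblasts, was read in 25 iNSLCs and at 80.1 normalized counts in the fibroblast but not in the PSC cells. MBP, a myelin protein, was read in 30 iNSLCs and 2 PSC cells. The remaining gene called higher in iNSLCs was read in only 3 of them, at up to 54.7 normalized counts. FOXD3 had no read in iNSLCs, and ERBB3 was at 43.4 to 126 normalized counts in the PSC cells and read in 13 iNSLCs. In the lists set beside SOX17, 5 endoderm genes gave 1 higher in each group. The 3 endothelial genes gave 2 higher in PSC cells, beside the same shares of all genes. CXCR4, a chemokine receptor also of neural cells, was read in 61 iNSLCs, while GATA4 and KDR had no read in any.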

How the data were processed

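RamDA-seq libraries of single marmoset cells were sequenced by the authors. The signal deposited by the authors is a matrix of normalized counts with 1 factor per cell. Tools listed in the submitters' processing notes, without roles, are featureCounts 1.5.1, STAR 2.6.0c, Seurat 3.0.0 and Trimmomatic. Genome build, annotation and use of strand were not given in the sources used here. In each cell, 100% of non-zero values were within 0.02 of a whole number of reads, and those reads gave depth and detection. A row with no gene name, at most 0.449% of a cell, was left out.

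Values were computed with Python 3.11.15, pandas 2.3.3, numpy 2.4.6 and scipy 1.17.1, and plotted with matplotlib 3.10.9. Log2 ratios are of group means plus a pseudocount of 1, and calls past 2-fold rest on them, whereas printed folds are of the means without it. Shares have exact Clopper-Pearson intervals and sums of reads exact Poisson intervals, both at 95%, a share of 0 was limited by 3 counts of the total, and where a group had no read, folds were set against 3 reads over that group. Sequencing reads without molecular identifiers are not independent molecules. The log2 ratio and the intervals of shares were tested on simulated data, the ratio only for genes with a mean of at least 10. Co-detection, correlations and list counts were not tested in this way. Cells were thinned to 129629 reads, which left out 7 iNSLCs. Levels were not compared between genes, as transcript lengths were not used here.

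The members, lists and the division at cell number 56 were chosen with earlier results of these data known. Named genes are the members, other SOX genes read in at least 50% of iNSLCs or in 4 PSC cells, up to 4 genes per list, and the 3 genes most alike each member read in at least 20 iNSLCs, sought where the mean reached 10 and at least 50% of iNSLCs had reads. Alternatives were a pseudocount of 10, equal totals, thinning, medians, at least 2 reads, and removals of cells. The removals were of each PSC cell in turn and of 10% of iNSLCs, those lowest in detected genes. A result for a gene alike SOX9 is not reported here.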

Additional observations from a re-analysis of the deposited data

Results flagged for a closer look

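In the 4 ESCs, the highest cell stood apart from the other 3 by Dixon's criterion for 2 of the 8 members that had any spread there, where chance flags about 1 in 20 groups of untied values. With 3 cells tied at 0 any value above 0 in the fourth meets the criterion, so that rate does not apply here. For SOX1 it was ESC cell 10, at 0.405 normalized counts from 1 read. For SOX10 it was ESC cell 12, at 4.32 normalized counts from 8 reads. The other 3 ESCs were at 0 in both cases.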

How the results depend on the processing

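The 6 members called higher in iNSLCs kept their direction under every alternative run, and 5 to 8 members passed 2-fold. SOX6 was lost with a pseudocount of 10. SOX3 was added by thinning, by removal of the iNSLCs with the fewest detected genes and by leaving out ESC cell 10. Leaving out ESC cell 12 added SOX4, and equal totals added SOX3 and SOX4. Members higher in the PSC cells numbered 0, and 1, SOX10, when the shallowest 10% of iNSLCs were removed, with a range of 0 to 1 over the PSC cells left out in turn. The share of iNSLCs with SOX5 and SOX6 was 53.8% at 2 or more reads of each, against 67.7%. No log2 ratio of a member changed sign, though those of SOX10 and SOX17 were 0 on medians. A pseudocount of 10 brought the log2 ratio of SOX1 from −4.26 to −1.56 and that of SOX5 from −3.96 to −1.45, by its own construction. SOX10 went from 0.85 to 0.11 in thinned cells.

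Each group is 1 culture, the iPSC and the fibroblast are 1 cell each, and differences between cultures, plates and clones cannot be told apart from those between cell types. Absence of a read is absence at that cell's depth. No paired analysis was possible because the groups share no replicate numbers and no test was made.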
